A study of Mus musculus with 8 samples.

Results

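The lysosomal proteases cathepsins B, C, D, H, L, S and Z, legumain, and the inhibitors cystatin C and cystatin B were examined in bone marrow-derived macrophages (BMDMs). They are encoded by Ctsb, Ctsc, Ctsd, Ctsh, Ctsl, Ctss, Ctsz, Lgmn, Cst3 and Cstb. The 10 genes were chosen by name, as the lysosomal cathepsins, legumain and cystatins, by a rule that uses no measured value but was written with earlier results of these data known. Of these, 9 were found among the 23761 genes listed. Ctsb was not analysed here. Ctsd was listed at 0 in all 8 libraries, and the other 8 genes all passed the filter for testing, a mean of at least 1 FPKM (a fragment count scaled to transcript length and library size).

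Total RNA was sequenced from 4 LysM and 4 K2KO cultures of BMDMs, each from a mouse aged 3 months, grown from marrow in medium conditioned by L929 fibroblasts. LysM mice carry Cre recombinase on both alleles of lysozyme M (LysM Cre/Cre). K2KO mice carry the same Cre/Cre alleles together with a floxed Klf2 gene on both alleles (KLF2 flox/flox), so that Klf2 is to be deleted only in cells of the myeloid lineage that have expressed Cre. The sample names mark all 8 as vehicle without naming the agent. All libraries therefore share the Cre insertions at the lysozyme M gene, Lyz2, and the vehicle. The columns of the table, called LysM0 to LysM3 and K2KO0 to K2KO3 here, give the genotype but not the mouse.

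Cathepsins are proteases of endosomes and lysosomes that are made as inactive proenzymes and matured by cleavage in the acid lumen. Most are cysteine proteases, cathepsin D is an aspartic protease, and legumain is a cysteine protease of another clan that cuts after asparagine. Macrophages use them to degrade engulfed material, to trim the invariant chain of MHC class II and to cleave endosomal Toll-like receptors, and cystatins bind and block the cysteine proteases.

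Klf2, the targeted gene, was not clearly lower in the libraries labelled K2KO. It was listed at 44.1, 52.9, 64.7 and 72.8 FPKM in the LysM libraries, against 45.5, 41.6, 59.2 and 59.3 FPKM in those labelled K2KO. The groups overlapped, with a log2 fold change of -0.18 (standard error, SE, 0.17, limma adjusted p = 0.460; exact two-sided permutation test, p = 0.429). A gene-level FPKM cannot tell reads of a deleted exon from those of the rest of the gene. Directions are therefore given for the libraries labelled K2KO.

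Among the 8 tested genes, Ctsl was higher and Lgmn was lower in the libraries labelled K2KO, and the other 6 were not called. A gene was called when its adjusted p from limma was under 0.05 and its log2 fold change was over 0.26 in size. Of all 10920 tested genes 18.4% were called, 9.84% as higher and 8.61% as lower. Among the 8, the groups did not overlap for 3 genes, namely Ctsl, Lgmn and Ctsz, against 23.1% of all tested genes (12.9% above and 10.2% below). The median log2 fold change of the 8 genes was -0.12, beside 0.01 over all tested genes. That median was 0.07 after quantile normalization, -0.08 after upper-quartile scaling and 0.04 after scaling to the same summed FPKM. The scaling to summed FPKM moved the median of all tested genes to 0.18, so its values are read relative to that shift. In bulk RNA, fewer cells of a type and less RNA per cell cannot be told apart.

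The promoters of the 2 called genes are shown because these genes moved in opposite directions. The sequences are from RefSeq on GRCm38.p6 and run from 250 bases before to 50 bases after an annotated start, on the strand of the gene. Capitals mark the letters CACGTG, the core of the element read by the MiT/TFE factors of lysosomal genes, or CACCC, the core of sites bound by KLF factors.
Ctsl, chr13:64370471-64370770, minus strand: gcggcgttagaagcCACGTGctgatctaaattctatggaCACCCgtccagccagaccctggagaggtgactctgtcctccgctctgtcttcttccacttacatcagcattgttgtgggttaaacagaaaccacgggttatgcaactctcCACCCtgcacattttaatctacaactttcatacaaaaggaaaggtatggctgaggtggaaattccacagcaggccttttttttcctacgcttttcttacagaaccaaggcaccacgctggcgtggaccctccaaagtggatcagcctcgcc
Lgmn, chr12:102439679-102439978, minus strand: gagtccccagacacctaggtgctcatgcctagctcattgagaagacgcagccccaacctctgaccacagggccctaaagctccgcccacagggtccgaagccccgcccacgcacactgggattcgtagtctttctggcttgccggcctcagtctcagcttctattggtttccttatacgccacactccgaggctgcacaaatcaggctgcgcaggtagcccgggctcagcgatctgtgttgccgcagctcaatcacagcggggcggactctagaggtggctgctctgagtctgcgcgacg
Lgmn, second annotated start, chr12:102439043-102439342, minus strand: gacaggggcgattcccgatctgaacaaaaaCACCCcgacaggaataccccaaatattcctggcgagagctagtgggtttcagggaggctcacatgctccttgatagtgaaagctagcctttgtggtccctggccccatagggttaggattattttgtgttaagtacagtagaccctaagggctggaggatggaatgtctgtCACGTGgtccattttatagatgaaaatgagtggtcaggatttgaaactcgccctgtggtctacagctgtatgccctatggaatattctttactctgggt

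The Ctsl window held CACGTG at position 15 and CACCC at positions 40 and 150, counted from 1 at its 5′ end. Its annotated start lies outside the locus given for Ctsl in the deposited table, which spans chr13:64363214-64370306. The first Lgmn window held neither motif, while the second held CACGTG at position 202 and CACCC at position 31. Both motifs were searched on both strands, with GAGGAAGT, a site of PU.1, and TGANTCA, a site of AP-1, which the 3 windows lacked. Across 32851 RefSeq windows of the same length, 7.15% held CACGTG, 57.5% held CACCC, 3.2% held GAGGAAGT and 7.81% held TGANTCA. RefSeq windows were matched for 7 of the 10 genes, with 8 windows in all. CACGTG was in 3 of these 8, CACCC in 5, GAGGAAGT in 2 and TGANTCA in 0. No window was matched for Ctsb, Ctsh and Cstb. A match describes the letters only and is not a measured binding site.

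Cathepsin L is a broad endopeptidase of the lysosome. Ctsl (chr13:64359337-64370890, minus strand) was listed at 1132, 1297, 1258 and 1190 FPKM in LysM0 to LysM3. In K2KO0 to K2KO3 it was listed at 1427, 1400, 1730 and 1470 FPKM. All 4 libraries labelled K2KO were above the highest LysM library, and K2KO2 was the highest. The mean was 1219 ± 73.1 FPKM (SD, n = 4) against 1507 ± 151 FPKM (SD, n = 4), or 1.24 times as high. The log2 fold change was 0.30 (SE 0.09, limma adjusted p = 0.0399; exact two-sided permutation test, p = 0.0286, the smallest that 4 against 4 libraries allow).

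The direction of Ctsl was the same in each of 16 other settings and in each of 8 fits that left out a library, but the call was not. It was called with quantile normalization (log2 fold change 0.58), upper-quartile scaling (0.35) and scaling to the same summed FPKM (0.47). It was not called after correction for GC content and transcript length, with a log2 fold change of 0.13 for the longest transcript of the gene and 0.25 (limma adjusted p = 0.0845) for the longest transcript inside the deposited locus. That transcript has 1971 bases and 44.7% GC, and the 2074 tested genes within 2 percentage points of that GC content had a median log2 fold change of 0.11. The shares of all tested genes called under these 5 settings were 14.0, 19.1, 28.7, 8.77 and 8.67%, in that order. With a library left out the log2 fold change was 0.23 to 0.34, and Ctsl remained called only without K2KO3 (adjusted p from 0.0381 to 0.108 over the 8 limma fits). Of all tested genes 21.9, 6.89, 10.2 and 4.98% were called without LysM0, LysM1, LysM2 and LysM3, and 7.51, 7.55, 6.14 and 26.2% without K2KO0, K2KO1, K2KO2 and K2KO3. Near-identical sequence was found in Gm47123 and Gm49230, which overlap Ctsl but lie outside the deposited locus.

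Cathepsin S is an elastin-degrading endopeptidase, active also at neutral pH, that trims the invariant chain. Ctss (chr3:95526786-95556403, plus strand) was the most abundant of the 8 tested genes and ranked 3 among all listed genes by mean FPKM. It was listed at 6157, 7191, 6400 and 6351 FPKM in the LysM libraries, against 5717, 6139, 6579 and 6153 FPKM in those labelled K2KO. The groups overlapped, with a log2 fold change of -0.09 (SE 0.08, limma adjusted p = 0.479; exact two-sided permutation test, p = 0.229). It was 0.08 when libraries were scaled to the same summed FPKM, also not called. The processed pseudogene Hmgb1-ps5 lies within Ctss on the same strand, at a mean of 3.32 FPKM.

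Cathepsin Z is a carboxypeptidase. Ctsz (chr2:174427493-174439039, minus strand) was listed at 1188, 1272, 1128 and 1188 FPKM in the LysM libraries, against 939, 1097, 1025 and 1110 FPKM in those labelled K2KO. All 4 libraries labelled K2KO were below the lowest LysM library, but Ctsz was not called. Its log2 fold change was -0.20 (SE 0.08, limma adjusted p = 0.0956; exact two-sided permutation test, p = 0.0286), and it was 0.07 after quantile normalization, -0.03 at the same summed FPKM, and -0.00235 and -0.01 under the GC and length corrections. The tested genes within 2 percentage points of its GC content of 57.3% had a median of -0.12. Nelfcd overlaps the end of Ctsz on the other strand, at a mean of 14.7 FPKM.

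As deposited, cathepsins H and C differed least between the groups, but not under every scaling. Cathepsin H is an aminopeptidase, and Ctsh (chr9:90054152-90076089, plus strand) was listed at 241, 258, 261 and 261 FPKM in the LysM libraries. In the libraries labelled K2KO it was listed at 258, 240, 279 and 253 FPKM, with a log2 fold change of 0.01 (SE 0.07, limma adjusted p = 0.906). It was 0.21 after quantile normalization (limma adjusted p = 0.0484) and 0.18 at the same summed FPKM (limma adjusted p = 0.0472), under the fold limit in both. Cathepsin C removes dipeptides and activates the serine proteases of granules. Ctsc (chr7:88278085-88310888, plus strand), the least abundant tested member, was listed at 66.5, 74.0, 83.8 and 81.7 FPKM in the LysM libraries, against 89.8, 70.5, 77.3 and 80.7 FPKM in those labelled K2KO. Its log2 fold change was 0.06 (SE 0.10, limma adjusted p = 0.692), -0.09 after the GC and length correction, 0.18 after quantile normalization and 0.22 at the same summed FPKM. The groups overlapped for both genes.

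Cathepsin D is the main aspartic protease of lysosomes. Ctsd (chr7:142375911-142388038, minus strand) was listed at 0 in every library, so no level or difference is given for it. The deposited table joins it to Ifitm10 in 1 locus, chr7:142326110-142388038, and Ifitm10 was also listed at 0. The read-through gene Gm49369 overlaps Ctsd on the same strand and shares 671 bases with it at 100% identity. In all, 2525 genes were listed at 0 in all 8 libraries. Gapdh, which every cell uses, was listed at 0 to 0.4999 FPKM, against 1962 to 2949 FPKM for Actb, and a listing at 0 was therefore not read as absence of the transcript.

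**Figure D1:**
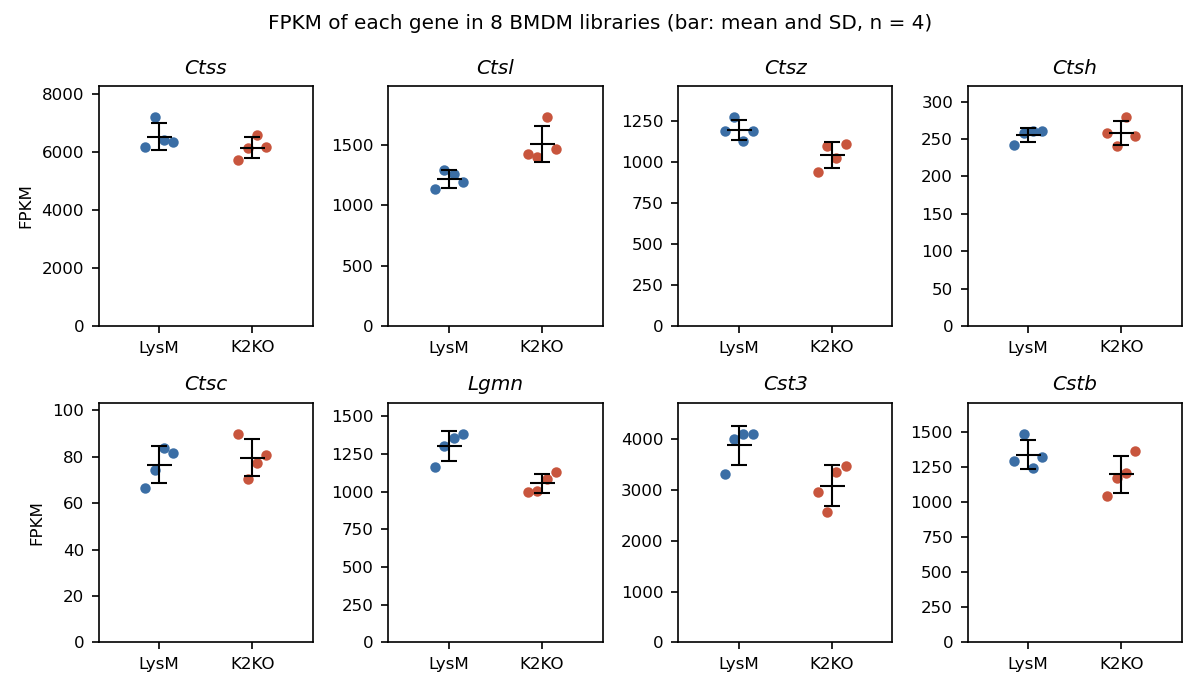
FPKM of the 8 tested genes in each library, with a vertical axis from 0 in each panel. Points are libraries, and the lines give the mean and SD of 4 libraries per genotype. The 4 libraries labelled K2KO lie above all LysM libraries for Ctsl and below them for Lgmn and Ctsz, and the groups overlap in the other 5 panels.

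Legumain is an asparaginyl endopeptidase that also cleaves cathepsins B, H and L during their maturation. Lgmn (chr12:102394084-102439813, minus strand) was listed at 1162, 1303, 1355 and 1384 FPKM in LysM0 to LysM3. In K2KO0 to K2KO3 it was listed at 999, 1005, 1083 and 1131 FPKM. All 4 libraries labelled K2KO were below the lowest LysM library, with LysM0 the lowest of its group. The mean was 1301 ± 98.6 FPKM (SD, n = 4) against 1055 ± 63.9 FPKM (SD, n = 4), or 0.811 of the LysM level. The log2 fold change was -0.30 (SE 0.08, limma adjusted p = 0.0319; exact two-sided permutation test, p = 0.0286).

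Lgmn was lower in each of the same 16 settings and 8 fits, but it was called in 6 and 2 of them. It was not called after quantile normalization (log2 fold change -0.05), upper-quartile scaling (-0.26, limma adjusted p = 0.0271, missing only the fold limit), scaling to the same summed FPKM (-0.13) or the GC and length correction (-0.22). With the transcript inside the deposited locus the last value was -0.23 (limma adjusted p = 0.0726). Genes of similar GC content, 51.8%, had a median of -0.02. With a library left out the log2 fold change was -0.35 to -0.27, and Lgmn remained called only without LysM0 or without K2KO3 (adjusted p from 0.0168 to 0.0978 over the 8 limma fits).

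Of the inhibitors, cystatin C is a secreted inhibitor of cysteine cathepsins. Cst3 (chr2:148871722-148875692, minus strand) was listed at 3311, 4000, 4095 and 4108 FPKM in the LysM libraries, against 2964, 2567, 3349 and 3465 FPKM in those labelled K2KO. The groups overlapped because LysM0 was lower than K2KO2 and K2KO3. The mean was 3879 ± 381 FPKM (SD, n = 4) against 3086 ± 407 FPKM (SD, n = 4). The log2 fold change was -0.33, the lowest of the 8, but Cst3 was not called (SE 0.12, limma adjusted p = 0.0708; exact two-sided permutation test, p = 0.0857). It was called without LysM0 (log2 fold change -0.41, limma adjusted p = 0.0343) and without K2KO3 (-0.39, limma adjusted p = 0.0370), and in 0 of the 16 other settings, where it ran from -0.33 to -0.11.

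Cystatin B is an inhibitor of the cytosol and nucleus. Cstb (chr10:78425669-78427622, plus strand) was listed at 1297, 1488, 1246 and 1324 FPKM in the LysM libraries, against 1043, 1175, 1210 and 1363 FPKM in those labelled K2KO. Of the latter, K2KO3 lay within the LysM range and the other 3 below it. The log2 fold change was -0.16 (SE 0.10, limma adjusted p = 0.238; exact two-sided permutation test, p = 0.171). It was 0.08 after quantile normalization and 0.00358 after scaling to the same summed FPKM.

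**Figure D2:**
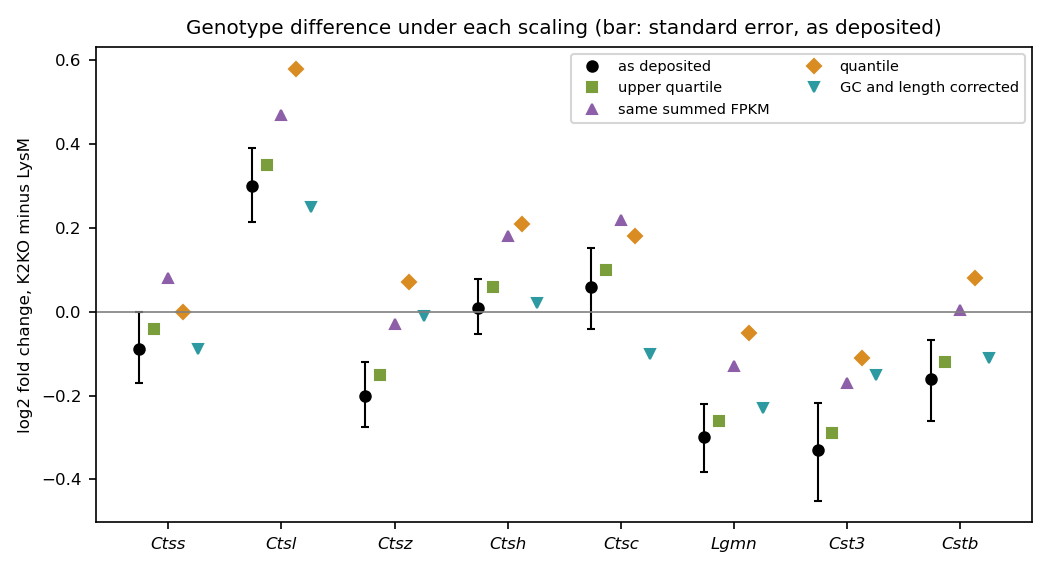
Log2 fold change (K2KO minus LysM) of the 8 tested genes as deposited and under 4 other scalings, with the GC and length correction drawn for the transcript inside the deposited locus. Bars give the standard error as deposited. Ctsl lies above 0 and Lgmn and Cst3 lie below 0 under all 5, while Ctsz and Cstb cross 0 after quantile normalization. Ctss (0.08) and Cstb (0.00358) also cross 0 at the same summed FPKM, and Ctsc (-0.10) does under the GC and length correction.

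In order of level, FPKM being scaled to length, the LysM libraries had Ctss, Cst3, Cstb, Lgmn, Ctsl, Ctsz, Ctsh and Ctsc. The ranges of Cstb, Lgmn, Ctsl and Ctsz overlapped in the LysM libraries, at 1246 to 1488, 1162 to 1384, 1132 to 1297 and 1128 to 1272 FPKM. In the libraries labelled K2KO, Ctsl at 1400 to 1730 FPKM stood above Cstb, Lgmn and Ctsz, of which Cstb reached the highest value, 1363 FPKM. Together the 8 genes made up 2.93, 3.14, 2.93 and 2.88% of the summed FPKM in LysM0 to LysM3 and 3.00, 2.97, 3.17 and 2.99% in K2KO0 to K2KO3. These shares overlapped.

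Ratios between genes of the same library do not depend on a scaling that uses a common factor for all genes of a library. They are given as a description, from the values as deposited. Quantile normalization and the GC and length correction do change them, and the ratios were not compared under these. After that correction the log2 fold changes of Ctsl and Cst3 were 0.13 and -0.11, against 0.30 and -0.33 as deposited. The ratio of Ctsl to Lgmn was 0.974, 0.995, 0.928 and 0.860 in the LysM libraries. In the libraries labelled K2KO it was 1.43, 1.39, 1.60 and 1.30, so that Ctsl exceeded Lgmn in 4 of 4 of these and in 0 of 4 LysM libraries. The ratio of Ctsl to Cst3 was 0.316 ± 0.0224 in the LysM libraries and 0.492 ± 0.0521 in those labelled K2KO (SD, n = 4 each). That of Ctsl to Ctss was 0.187 ± 0.00695 and 0.245 ± 0.0149 (SD, n = 4 each). Of the 7 ratios of Ctsl to another tested member, 6 did not overlap between the groups. They share Ctsl, whose own groups did not overlap, and of its ratios to the 10767 other tested genes above 0 in every library 43.0% did not overlap. The exception was Ctsl to Ctsc, at 16.0 ± 1.46 against 19.1 ± 2.73 (SD, n = 4 each).

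Of the 21 ratios between the other 7 members, 4 did not overlap (19.0%, against 22.9% of all pairs of tested genes above 0 in every library), namely those of Ctsc and of Ctsh to Lgmn and to Cst3. The ratio of Ctsh to Lgmn was 0.188 to 0.208 in the LysM libraries and 0.224 to 0.259 in those labelled K2KO. The ratio of Lgmn to Cst3 was 0.336 ± 0.0108 in the LysM libraries and 0.345 ± 0.0318 in the libraries labelled K2KO (SD, n = 4 each), and the groups overlapped. The ratios of Cst3 to Ctss, Ctsz and Cstb overlapped as well. The summed cysteine cathepsins Ctsc, Ctsh, Ctsl, Ctss and Ctsz exceeded the summed cystatins Cst3 and Cstb in every library. That ratio was 1.91, 1.84, 1.71 and 1.67 in the LysM libraries and 2.10, 2.39, 2.13 and 1.88 in the libraries labelled K2KO, where K2KO3 fell below LysM0.

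**Figure D3:**
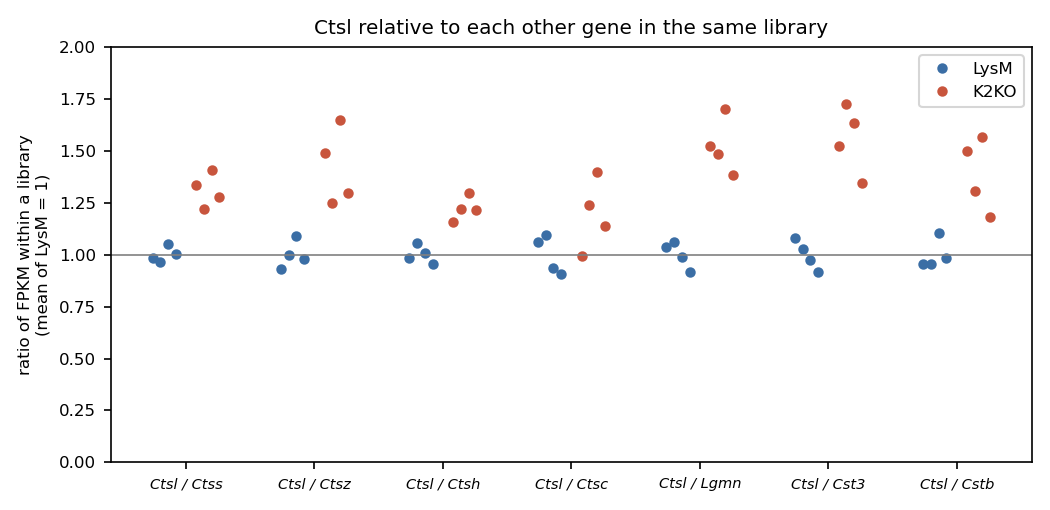
Ratio of the FPKM of Ctsl to each other tested gene within a library, divided by the mean ratio of the LysM libraries, on an axis from 0. Each point is a library, 4 per genotype. The libraries labelled K2KO lie above all LysM libraries in 6 of the 7 ratios, and overlap them for Ctsc.

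Most of these genes are among the most abundant in the cells, and as deposited the values of abundant genes were mostly lower in the libraries labelled K2KO. Of 59 genes with a mean of at least 1000 FPKM, a set chosen after the values were seen, 47 had a negative log2 fold change and the median was -0.31. That median was -0.03 after quantile normalization, -0.26 after upper-quartile scaling, -0.14 at the same summed FPKM and -0.12 after the GC and length correction. As deposited, Lgmn (-0.30) and Cst3 (-0.33) lie near the median of the 59. Of the 59, 28 were called (47.5%), 45.8% as lower and 1.69%, Ctsl alone, as higher. With quantile normalization 9 of the 59 were called higher and 6 lower, with upper-quartile scaling 3 and 24, at the same summed FPKM 4 and 14, and after the GC and length correction 0 and 5. The lower calls fell from 27 to between 5 and 8 when LysM1, LysM2, LysM3, K2KO0, K2KO1 or K2KO2 was left out, and were 33 without LysM0 and 30 without K2KO3. Ctsl ranked 1 of 59 by log2 fold change as deposited and under quantile, upper-quartile and summed-FPKM scaling. It ranked 10 after the GC and length correction, 3 with the transcript inside the deposited locus, and 2 without LysM0 or without K2KO2. The summed FPKM was 531755 ± 23776 in the LysM libraries and 473577 ± 23980 in the libraries labelled K2KO (SD, n = 4 each; exact two-sided permutation test, p = 0.0571), and its part in these differences was not tested.

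**Figure D4:**
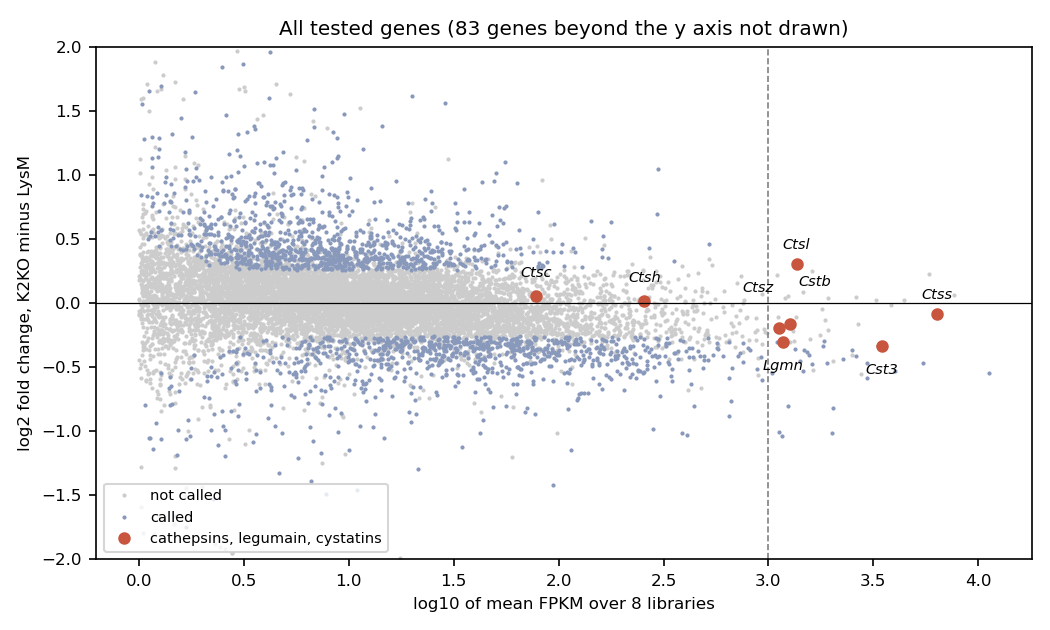
Log2 fold change (K2KO minus LysM) against the log10 of the mean FPKM for the tested genes, with called genes in blue, the 8 members in red and a dashed line at 1000 FPKM. 83 genes lie beyond the vertical axis and are not drawn. To the right of the line Ctsl is above 0 and Ctss, Ctsz, Cstb, Lgmn and Cst3 are below it.

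Likeness of pattern was measured as the root mean square difference of log2(FPKM + 0.1), centred per gene, over the 8 libraries. The tested gene nearest to Ctsl was Zfp386, at 0.052, and the nearest member was Ctsh, at 0.155. Nearest to Lgmn were Mrpl42 (0.024) and, among the members, Cst3 (0.085). Cst3 was nearest to Ctdp1 (0.020), and Ctsl was its farthest member (0.338). Ctsz was nearest to Atp6v0e (0.034) and Cstb to Inpp5a (0.029), and Ctsz and Cstb were each other's nearest member (0.062). Ctss was nearest to Tmcc1 (0.029), Ctsh to Ensa (0.030) and Ctsc to Kctd18 (0.045). Many other genes lay closer than any member. Among the other tested genes, the nearest member ranked from 33 (for Cstb) to 1739 (for Ctsl).

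Other cathepsin genes were at lower levels than the 6 members above 1000 FPKM. Of 8 listed, 5 were tested, and 1 was called higher and 0 lower, beside 9.84% and 8.61% of all tested genes. Their median log2 fold change was 0.01. Without LysM0, where 21.9% of all tested genes were called, 1 was called higher and 1 lower. With quantile normalization, where 14.0% were, 2 were called higher and 0 lower. Ctso, a cysteine cathepsin of broad expression, was at 11.2 ± 0.465 FPKM in the LysM libraries, against 14.9 ± 1.33 FPKM in those labelled K2KO (SD, n = 4 each). Its log2 fold change was 0.40 (SE 0.07, limma adjusted p = 0.0126), without overlap, and it was called in 8 of 8 fits with a library left out. After the GC and length correction it was at 0.26 (limma adjusted p = 0.0402) and missed only the fold limit. Ctsk, the bone-resorbing cathepsin K, lies 17.4 kb from Ctss and had a log2 fold change of -0.42 that was not called (limma adjusted p = 0.0850). Ctsa, at a mean of 507 FPKM the most abundant of these, and Napsa, the aspartic protease napsin A, had log2 fold changes of 0.09 and -0.00223.

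Among other inhibitors of these proteases, 18 were listed, 6 were tested, 1 was called higher and 0 lower. Of all tested genes 9.84% were called higher and 8.61% lower. The counts were 2 and 0 with upper-quartile scaling, 3 and 0 at the same summed FPKM, and 0 and 0 with quantile normalization. In that order, 19.1, 28.7 and 14.0% of all tested genes were called. After either GC and length correction they were 0 and 1, where 8.77 and 8.67% of all tested genes were called. Serpinb6b had a log2 fold change of 0.85 (limma adjusted p = 0.0362) at a mean of only 0.708 FPKM in the LysM libraries, against 1.34 FPKM in those labelled K2KO. It passed the filter only through the libraries labelled K2KO, so its call is not read as a result about the inhibitors. It was called in 2 of the 6 fits with a library left out that tested it. Serpinb6a, the most abundant at 513 FPKM, was not called (log2 fold change -0.25, limma adjusted p = 0.0833). Stfa1, Stfa3, Csta1 and BC100530, of the stefin cluster, were listed at 0.

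Proenzymes reach the lysosome through a mannose 6-phosphate tag and its receptors. A list of 15 genes covered this route and other sorting receptors, adaptors and the retromer. Of these, 6 were called higher and 0 lower, beside 9.84% and 8.61% of all tested genes. Their median log2 fold change was 0.23. Gnptab, which encodes subunits of the enzyme that makes the tag, went from 7.39 ± 0.848 to 10.5 ± 0.541 FPKM (SD, n = 4 each), a log2 fold change of 0.51 (limma adjusted p = 0.0110). The sorting receptor Sorl1 was higher by 0.52 and the adaptor Gga2 by 0.33 on the log2 scale. All 3 core retromer genes, Vps35 (0.47), Vps26a (0.27) and Vps29 (0.32), were called higher as deposited, but none of these 3 after the GC and length correction (0.23, 0.17 and 0.18), and Vps26a and Vps29 in 3 and 4 of the 8 fits with a library left out. The mannose 6-phosphate receptors themselves were not called. Their log2 fold changes were 0.15 for M6pr (limma adjusted p = 0.141) and 0.30 for Igf2r (limma adjusted p = 0.0785). After that correction Gnptab, Sorl1 and Gga2 were called higher and the adaptor subunit Ap1g1 lower, where 8.77% of all tested genes were called. Without LysM1 or without LysM3, where 6.89 and 4.98% of all tested genes were called, 3 of the 15 were called higher.

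MiT/TFE factors switch on lysosomal genes, and of 11 genes for these factors and their regulators 5 were called higher and 0 lower, beside the same 9.84% and 8.61% of all tested genes. The factor Tfec went from 2.30 ± 0.368 to 4.10 ± 0.889 FPKM (SD, n = 4 each), a log2 fold change of 0.80 (limma adjusted p = 0.0203). The other 4 encode regulators, namely the Rag GTPases Rragd (0.86) and Rragc (0.27) and the folliculin partners Fnip1 (0.50) and Fnip2 (0.41). Tfe3 differed by -0.22 (limma adjusted p = 0.0274), under the fold limit, and the other factors Tfeb and Mitf were not called. After the GC and length correction Rragd and Fnip2 were called higher and Tfe3 lower. The count of 5 fell to 3 without LysM1, LysM3 or K2KO0 (6.89, 4.98 and 7.51% of all tested genes called) and to 2 without K2KO1 or K2KO2 (7.55 and 6.14%).

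Other enzymes of the lysosome went both ways. In a list of 7 other peptidases and related enzymes, which holds Ctsa again, Tpp1, a tripeptidyl peptidase, was called higher (log2 fold change 0.29, limma adjusted p = 0.0316), and Naaa, an amide hydrolase of lipids, was called lower (-0.49, limma adjusted p = 0.0356). Neither was called after the GC and length correction, or without LysM1, LysM2, LysM3, K2KO0, K2KO1 or K2KO2. Of all tested genes 9.84% were called higher and 8.61% lower as deposited. In this list 3 were called higher and 1 lower with quantile normalization, and 2 and 0 at the same summed FPKM. Under these scalings 14.0 and 28.7% of all tested genes were called. Of 32 hydrolases and related enzymes (Hgsnat is an acetyltransferase), 6 were called higher and 2 lower, where 18.4% of all tested genes were called in either direction, and the median log2 fold change was 0.03. Man2b1, the lysosomal alpha-mannosidase, went from 193 ± 9.04 to 399 ± 29.6 FPKM (SD, n = 4 each), a log2 fold change of 1.04 (limma adjusted p = 0.000120). Of the 28 genes called across these lists it was the 1 called in all 16 other settings.

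Glb1, the lysosomal beta-galactosidase, was called higher by 0.63 on the log2 scale, and Arsb, Asah1, Galc and Gla by 0.92, 0.40, 0.31 and 0.29. After the GC and length correction Galc was at 0.08 and Gla at 0.23 (limma adjusted p = 0.0466, under the fold limit), neither called, and the other 4 remained called. Galc was called in 2 and Gla in 5 of the 8 fits with a library left out. Dnase2a and Hgsnat were called lower, at -0.29 and -0.27. Under upper-quartile scaling Dnase2a, at -0.25 (limma adjusted p = 0.0203), missed only the fold limit. It was at -0.14 after quantile normalization and -0.13 at the same summed FPKM, and Hgsnat was at -0.25, -0.22 and -0.10 under quantile, upper-quartile and summed-FPKM scaling, all not called. After the GC and length correction Dnase2a was still called (-0.27), though not with the transcript inside the deposited locus (-0.18), and Hgsnat (-0.24) was not. The 8 calls of this list fell to 5 without LysM1, LysM2 or K2KO0, where 6.89, 10.2 and 7.51% of all tested genes were called, to 4 without K2KO2 (6.14%) and to 3 without LysM3 (4.98%). Of 18 subunits and partners of the V-ATPase, which acidifies the lumen in which cathepsins mature, only Atp6v0b was called, at -0.30 (limma adjusted p = 0.0260). It was not called after quantile normalization (-0.06), upper-quartile scaling (-0.26, under the fold limit), scaling to the same summed FPKM (-0.14) or the GC and length correction (-0.11, limma adjusted p = 0.255). Scaling to the same summed FPKM gave 5 called higher and 0 lower, a share near the 28.7% of all tested genes called under that scaling, of which 89.0% were higher. Without LysM1, LysM3, K2KO0, K2KO1 or K2KO2 there were 0 calls among the 18.

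**Figure D5:**
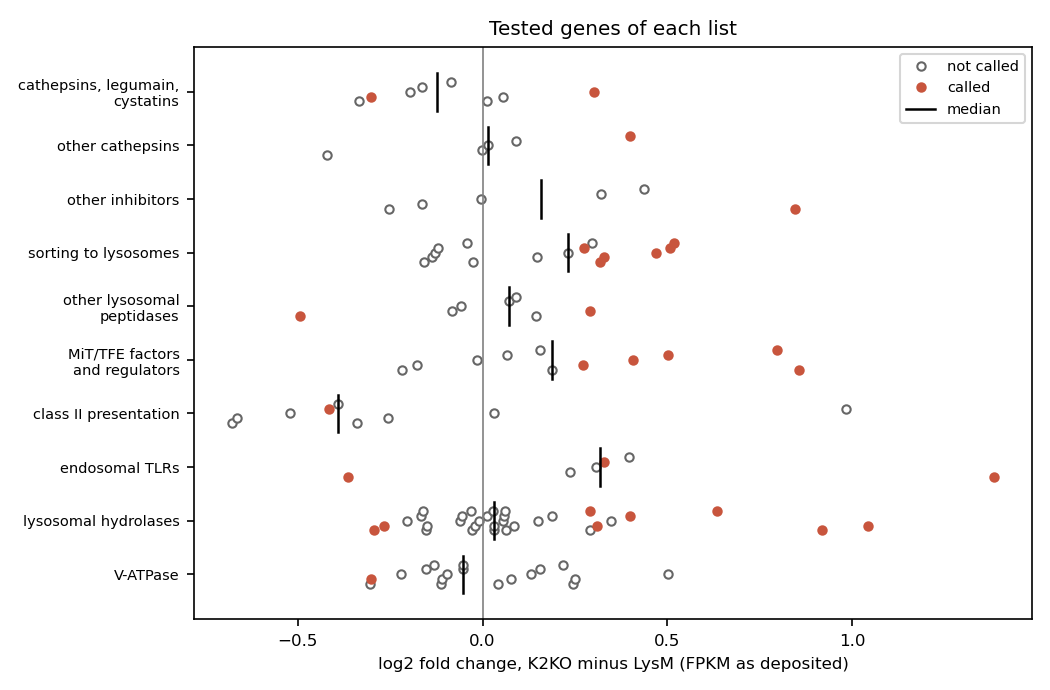
Log2 fold change (K2KO minus LysM, FPKM as deposited) of the tested genes of each list, with called genes filled and the median of each list as a black line. The median of the members is -0.12, that of the sorting genes 0.23 and that of the class II genes -0.39.

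Substrates and partners of the cathepsins were also measured. Of 11 genes of class II presentation, 9 were tested. Of these, 0 were called higher and 1 lower, beside 9.84% and 8.61% of all tested genes. The 1 lower call is near that share and is not read as a result about the list. The median log2 fold change was -0.39. The called gene was Ifi30, a thiol reductase that opens antigens for cleavage, at 233 ± 5.84 against 175 ± 11.9 FPKM (SD, n = 4 each), a log2 fold change of -0.42 (limma adjusted p = 0.00902). It was at -0.25 under both quantile and summed-FPKM scaling (limma adjusted p = 0.0343 and 0.0228), missing only the fold limit. After the GC and length correction it was not called (-0.25, limma adjusted p = 0.0554), though it was with the transcript inside the deposited locus (-0.28, limma adjusted p = 0.0418). Cd74, the invariant chain that cathepsin S trims, was listed at 1175, 1933, 2373 and 2255 FPKM in LysM0 to LysM3. In the libraries labelled K2KO it was listed at 1232, 1087, 1406 and 1526 FPKM. LysM0 was the lowest LysM library and lay within the range of those labelled K2KO, and Cd74 was not called (log2 fold change -0.52, limma adjusted p = 0.109). H2-Aa and H2-Ab1 were likewise lowest of their group in LysM0. Without LysM0, 7 of the 9 class II genes were called lower, in place of 1. In that fit 21.9% of all tested genes were called in either direction.

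The endosomal Toll-like receptors need proteolytic cleavage to signal. Tlr8 and Tlr13 were called higher, by 1.38 and 0.33 on the log2 scale, and their chaperone Unc93b1 was called lower. Unc93b1 was at 921 ± 62.7 FPKM in the LysM libraries, against 715 ± 27.2 FPKM in those labelled K2KO (SD, n = 4 each), a log2 fold change of -0.36 (limma adjusted p = 0.0144), and was not called under quantile (-0.08) or summed-FPKM scaling (-0.20, under the fold limit). After the GC and length correction only Tlr8 (1.22) was called, with Tlr13 at 0.19 and Unc93b1 at -0.22. The Tlr8 groups overlapped, with 11.0 FPKM in K2KO3 and 11.2 FPKM in LysM0. Tlr3, Tlr7 and Tlr9 were not called as deposited. Of the 6 genes, 2 were called higher and 1 lower as deposited, beside 9.84% and 8.61% of all tested genes. The counts were 3 and 0 with quantile normalization, 5 and 0 at the same summed FPKM, and 3 and 1 with upper-quartile scaling. In that order, 14.0, 28.7 and 19.1% of all tested genes were called in either direction. Without LysM3, 0 of the 6 genes were called, without K2KO2 only Unc93b1 was, and without K2KO3, 4 were called higher and 1 lower. In these fits 4.98, 6.14 and 26.2% of all tested genes were called, in that order. Of 7 listed serine proteases and granule genes served by cathepsin C, only Elane and Prtn3 passed the filter, at means of 2.75 and 2.21 FPKM, and neither was called. Gzma and Tpsb2 were listed at 0.

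Markers of macrophages were present in all libraries, with Cd68 the most abundant at a mean of 1807 FPKM, and 9 of the 10 passed the filter. Their summed level was 4077, 4168, 3964 and 4086 FPKM in the LysM libraries, against 3764, 3722, 3859 and 3839 FPKM in those labelled K2KO. As deposited the sums did not overlap, but they were not compared under other scalings. The markers did not move together. Of the 3 most abundant, Cd14 was at 1028 against 829 FPKM, Cd68 at 1834 against 1779 FPKM and Csf1r at 524 against 526 FPKM. Of the 9 tested markers 4 had a positive log2 fold change, and the median was -0.04. The part of these sums in the differences of Ctsl, which was higher, and Lgmn, which was lower, was not tested. Among these markers Mertk was called higher and Lyz2, whose alleles carry Cre in both groups, was called lower, at 18.6 ± 2.88 against 13.2 ± 1.73 FPKM (SD, n = 4 each; limma adjusted p = 0.0260).

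The summed markers of each other cell type overlapped between the groups with 1 exception. The T or NK cell markers summed to 1.73, 2.07, 2.10 and 2.45 FPKM in the LysM libraries, against to 5.16, 5.45, 6.03 and 5.51 FPKM in those labelled K2KO. Nearly all of that was Cd4 (1.92 against 5.15 FPKM), while Cd3e, at a mean of 0.0657 FPKM, and Cd8a, at 0.0208 FPKM, were near 0. The neutrophil sum, led by S100a9 at a mean of 129 FPKM, ranged from 178 to 323 FPKM, and within it only Camp was called (log2 fold change -1.14). The osteoclast sum, led by Atp6v0d2 at 92.1 FPKM, ranged from 135 to 253 FPKM, with Calcr listed at 0. The most abundant dendritic cell marker, Itgax, was at 4.91 FPKM and that of B cells, Cd79b, at 2.47 FPKM. Those of fibroblasts (Acta2, 0.925 FPKM), erythroid cells (Hba-a1, 0.713 FPKM, with Hbb-bt listed at 0) and mast cells (Kit, 0.228 FPKM) were under 1 FPKM.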

How the data were processed

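The authors prepared stranded total RNA libraries from BMDMs of 4 mice per genotype and deposited 1 table of FPKM, with 8 columns of 1 library each and no pooling. The methods name TopHat2 on mm10 and Cufflinks, and the submitters' processing notes name STAR, Cufflinks and Cuffdiff. Versions are not given in the sources used here. The methods and the labels also name different RNA isolation kits. FPKM carry no counts, so no counting error or detection limit is given. The smallest steps between low values gave depths of 0.898 to 1.39 relative to LysM0, which overlapped between the genotypes (p = 0.571, exact two-sided permutation test).

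Differences were tested on the log2(FPKM + 0.1) scale, which understates changes of low genes, with limma 3.58.1 in R 4.3.3 (intensity trend, no covariate) for 10920 genes with a mean of at least 1 FPKM, with Benjamini-Hochberg adjustment over all of them. The call limits are those of the study's methods. For single values an exact two-sided permutation test used the 35 splits of 8 libraries, with 0.0286 the smallest p. Libraries are taken as separate mice. Coordinates, strand and overlaps are from GENCODE M21 on GRCm38, which matched 23645 of the listed genes, and a near-identical copy has at least 95% identity over at least 200 bases.

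The members and gene lists were chosen with earlier results of these data known. The text names the members, Klf2, each called gene of a pathway list and its 3 most abundant genes where of note, the nearest gene and member by pattern, and the leading or absent markers. Ifitm10, Gapdh, Actb, the overlapping genes, receptors and factors named as not called, and markers near 0 were chosen after their values were seen. Alternatives were other pseudocounts, filters, scalings, call limits, ordinary least squares, no intensity trend, protein-coding genes only, a local regression on GC content and length (span 0.3), a replicate block and each library left out. Scaling to the same summed FPKM and the transcript inside the deposited locus were added after seeing the data.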

Additional observations from a re-analysis of the deposited data

Results flagged for a closer look

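In 2 of 74 groups of 4 libraries examined, 1 library lay far from the other 3, where chance alone gives 3.7 under Dixon's test. Cst3 was listed at 3311 FPKM in LysM0, and at 4000 to 4108 FPKM in the other LysM libraries. Gga2 was listed at 9.6 FPKM in LysM0, and at 8.17 to 8.39 FPKM in the other LysM libraries.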

How the results depend on the processing

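Of the 2 members called, 0 remained with a mean FPKM filter of 0.1, with no filter, with ordinary least squares, at an absolute log2 fold change over 1 and under either GC and length correction, and 1 (Ctsl) remained with quantile, upper-quartile or summed-FPKM scaling. Leaving out 1 library gave 0 to 3. The pathway lists had 28 called genes, and 7 with no filter, 16 with ordinary least squares, 2 at the stricter fold limit, and 14 or 15 under the GC corrections, with 11 (without LysM3) to 33 (without LysM0) when a library was left out. Of all tested genes 2014 were called, and 483 with no filter, 746 with ordinary least squares, 110 at the stricter fold limit, 3132 at the same summed FPKM, and 956 or 945 under the GC corrections, with 543 (without LysM3) to 2863 (without K2KO3) when a library was left out. The share of calls that were higher was 53.3% as deposited, 64.1% with upper-quartile scaling and 89.0% at the same summed FPKM. Same-numbered LysM and K2KO columns did not deviate together (r across genes -0.07, 0.02, 0.07 and -0.06). The other pairs of columns ranged from -0.14 to 0.18. No pairing by number was seen, but these values cannot exclude that such cultures were handled together. A replicate block left 2 members called and 2057 genes in all, and with the GC correction it gave 0 members, 10 pathway genes and 785 genes.

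Some log2 fold changes that were not called changed sign. Klf2 was at 0.05 and 0.04 under the GC corrections and 0.05 with the block and the GC correction together. Ctsc was at -0.09 and -0.10 under the GC corrections, -0.09 with both the block and the correction, and from -0.00898 (without LysM0; -0.00374 without K2KO0) to 0.11 with a library left out. Ctsh ran from -0.03 (without K2KO2; -0.01 without LysM0) to 0.05 with a library left out. Ctss was at 0.08 and Cstb at 0.00358 at the same summed FPKM. That scaling applies a common factor to all genes of a library and moved the median of all tested genes to 0.18. Relative to that shift both genes stayed below the median. With quantile normalization Ctsz was at 0.07 and Cstb at 0.08. The cause of the other sign changes was not tested.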
